A study of Arabidopsis thaliana with 6 samples.

Results

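The genes described here encode 10 enzymes that build the glucan polymers of the pollen wall: 5 callose synthases (CALS5, CALS9, CALS10, CALS11 and CALS12), 2 cellulose synthase-like D proteins (CSLD1 and CSLD4) and 3 cellulose synthases (CESA1, CESA3 and CESA6). They were taken as a list of loci from a table of 27827 features, by a rule that names no measured value but was drawn up with earlier results of these data known, and all 10 were present with a value on every array. The samples were mature pollen grains of Arabidopsis thaliana, ecotype Columbia 0, taken from 3 biological replicates of wild-type plants and 3 of plants that carried 1 mutant allele of NOT1, written NOT1+/-. Grains had been shed from open flowers, sieved and sorted by flow cytometry, and their total RNA was hybridised to Affymetrix Arabidopsis Gene 1.1 ST arrays, 1 array per sample. Pollen is haploid, so the sorted grains of a NOT1+/- plant may carry either allele and each of those samples pools both kinds; the labels give neither the type of mutation nor the proportion of grains with it. Fewer cells of a type and less RNA per cell cannot be told apart in such bulk samples.

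Callose is a glucan that the pollen mother cell lays down around the meiotic products, where it separates the microspores and serves as a mould for the patterned outer wall. Later it lines the wall of the growing pollen tube and forms the plugs that seal off its older part. Cellulose is the other glucan of the tube wall. It is made by CESA proteins, which assemble into complexes at the plasma membrane, and by CSLD proteins, which act in tip-growing cells. Callose synthases, CESA and CSLD proteins all use UDP-glucose as the sugar donor.

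Between the genotypes, the pollen wall synthases did not move as a block. CALS5 and CESA3 were higher in NOT1+/- pollen, by 1.73-fold and 2.51-fold, and the other 8 genes did not pass the test. Limma on log2 intensity, with Benjamini-Hochberg adjustment over all 27827 features and a call at an adjusted p under 0.05, thus called 2 of 10 higher, against 8.84% of all features. It called 0 of 10 lower, against 3.22% of all features. At an unadjusted p under 0.05, 3 of the 10 were higher and 2 lower, against 13.2% and 12.5% of all features. An unequal-variance test per feature, adjusted in the same way, called 2 higher and 1 lower, against 4.42% and 0.83%. In 3 of the 10 genes every NOT1+/- value lay above every wild-type value, which was so for 14.9% of all features, and in 3 every NOT1+/- value lay below, against 16.9%. With only 10 genes, these counts are too small to say whether they differ from the shares over all features. The median log2 fold change of the 10 was -0.07, beside -0.10 over all features, with a range from -0.56 to 1.33.

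**Figure D1:**
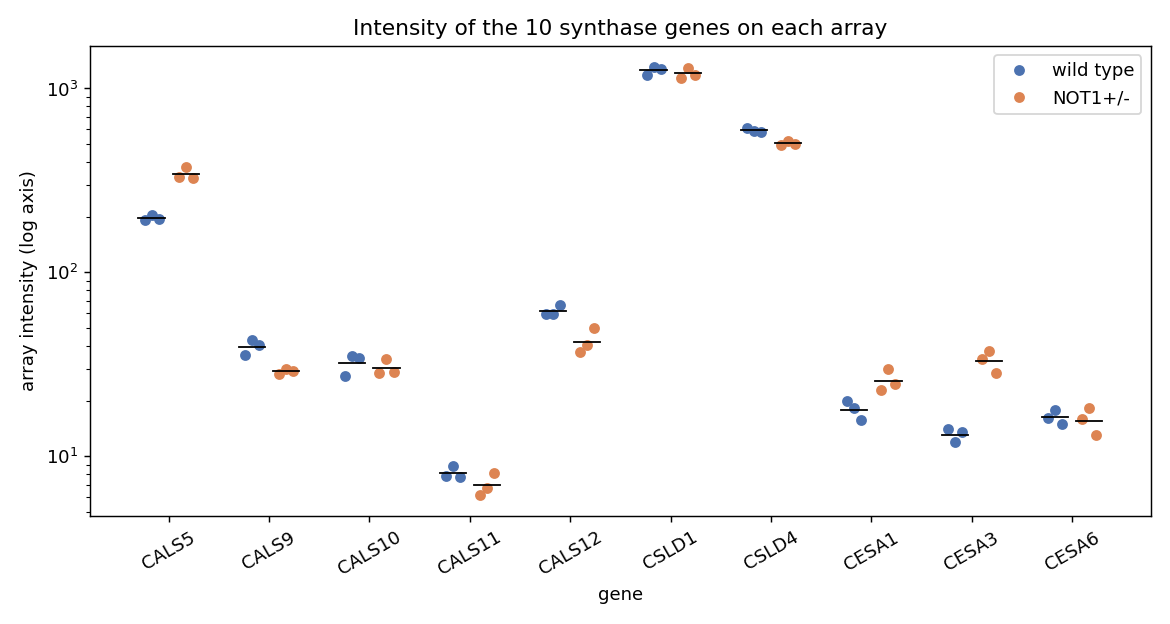
Intensity (log axis) of the 10 genes on each of the 6 arrays, with wild type in blue, NOT1+/- in orange and the geometric mean of each genotype as a bar. The genotypes separate upwards for CALS5, CESA1 and CESA3 and downwards for CALS9, CALS12 and CSLD4; heights of different genes are not comparable, since each has its own probes.

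The array summary gave intensities on a linear scale, with array medians between 12.03 and 13.13 and a smallest value of 1. Upper values differed by genotype: the 95th percentile was 133 to 141 on wild-type arrays and 193 to 202 on NOT1+/- arrays. Over all features 2461 were called higher and 896 lower; after quantile normalization, which forces all arrays to 1 distribution, the counts were 2201 and 1991. Scaling by the 75th percentile gave 2211 and 1460. NOT1 (AT1G02080), the targeted gene, measured 48.5 ± 2.2 across wild-type arrays against 31.0 ± 2.11 across NOT1+/- arrays (mean ± SD of intensity, n = 3 each). Its log2 fold change of -0.65 (SE 0.15) passed (adjusted p = 0.0295), but not when any 1 array was left out (adjusted p 0.0527 to 0.118), under the replicate block (0.0696) or after median centring (0.0546). All 10 markers of the pollen vegetative cell lay above the array median on every array. Their summed intensity was 10486 to 11546 in wild type and 10936 to 11386 in NOT1+/-. Of these 10, 3 were called higher and 0 lower, against 8.84% and 3.22% of all features. At an unadjusted p under 0.05, 4 were higher and 1 lower, against 13.2% and 12.5% of all features. The unequal-variance test called 2 higher and 0 lower, against 4.42% and 0.83%. Of 15 tapetum markers 0 were higher and 1 was lower (summed intensity 210 to 225 in wild type and 181 to 206 in NOT1+/-), of 10 green tissue markers 0 and 2 (90.0 to 103 and 59.4 to 77.1) and of 10 floral organ markers 0 and 1 (108 to 136 and 116 to 126); at an unadjusted p under 0.05, 0, 0 and 1 of these were higher and 3, 3 and 2 lower, and by the unequal-variance test 0 in either direction in each. No marker was listed at 0, and neither was any other feature, the smallest value being 1. Of 5 sperm cell markers 2 were higher and 0 lower, also at an unadjusted p under 0.05, but 0 by the unequal-variance test. Their summed intensity was 673 to 679 in wild type and 723 to 1153 in NOT1+/-, the highest being NOT1+/- replicate 3.

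CALS5 (AT2G13680_at) makes the callose around microspores on which exine patterning depends, and callose of the pollen tube. Its intensity was 193, 205 and 194 in the wild-type arrays and 328, 374 and 326 in the NOT1+/- arrays. The replicates lay close together and the genotypes were well apart. CALS5 rose by 0.79 on the log2 scale (SE 0.15; 95% interval from 0.44 to 1.15; adjusted p = 0.0119), more than the replicates differed among themselves. For CALS5 alone an exact permutation of the arrays (two-sided) gave p = 0.1, its lowest possible value at this n. The call rested on the scaling and on 1 array: after quantile normalization the log2 fold change was 0.16 (adjusted p = 0.555), and without NOT1+/- replicate 2 it was 0.73 (adjusted p = 0.0587), within a range of adjusted p from 4.41e-05 to 0.555 over 15 alternatives. Without NOT1+/- replicate 3, where sperm cell markers were highest, it was 0.83 (adjusted p = 0.0283).

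CALS9 (AT3G07160_at, GSL10 in the reference table) and CALS10 (AT2G36850_at, GSL8) are both needed for microspores to enter the asymmetric division that sets apart the germ line, and CALS10 also for cell plates in other tissues. CALS9 had 35.7, 42.8 and 40.2 in wild type and 28.1, 29.8 and 29.2 in NOT1+/-. All NOT1+/- values of CALS9 lay below all wild-type values, yet its log2 fold change of -0.44 (SE 0.15, 95% interval -0.80 to -0.086) did not pass after adjustment (adjusted p = 0.115). CALS10 had 27.3, 35.1 and 34.3 in wild type and 28.3, 33.8 and 28.8 in NOT1+/-, so its genotypes overlapped. Its log2 fold change was -0.08 (95% interval -0.49 to 0.32, adjusted p = 0.81).

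CALS11 (AT4G04970_at, GSL1) and CALS12 (AT4G03550_at, GSL05) together form the callose wall that divides the microspores of a tetrad, and CALS12, known also as PMR4, makes the callose of wound and pathogen responses. CALS12 had 59.7, 59.4 and 66.9 in wild type and 36.8, 40.4 and 49.8 in NOT1+/-. The genotypes of CALS12 did not overlap, with NOT1+/- replicate 3 nearest to wild type. Its log2 fold change was -0.56 (SE 0.18, 95% interval -0.97 to -0.15), with an adjusted p of 0.0857. CALS11 was dim, below the array median on all 6 arrays, with 7.83, 8.88 and 7.73 in wild type and 6.2, 6.76 and 8.14 in NOT1+/-. Whether CALS11 was above background is not known, since no detection calls were used. Its log2 fold change was -0.22 (95% interval -0.62 to 0.18, adjusted p = 0.476).

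CSLD1 (AT2G33100_at) and CSLD4 (AT4G38190_at) are the CSLD proteins that pollen tubes need for growth and for an ordered cellulose layer. CSLD1 had 1187, 1304 and 1271 in wild type and 1140, 1295 and 1191 in NOT1+/-. The genotypes of CSLD1 overlapped and its log2 fold change was -0.05 (SE 0.15, 95% interval -0.40 to 0.30, adjusted p = 0.861). CSLD4 had 610, 586 and 583 in wild type and 490, 519 and 500 in NOT1+/-. For CSLD4 the spread within a genotype was small (SD 15.2 and 14.8) and the genotypes did not overlap, but the difference was small too, with a log2 fold change of -0.24 (SE 0.14, 95% interval -0.57 to 0.10, adjusted p = 0.354). After quantile normalization the log2 fold change of CSLD4 was -0.79 (adjusted p = 0.00854), within a range of adjusted p from 0.00854 to 0.596 over its 15 alternatives. CSLD4 was also called lower with a mean-variance trend and robust fit (0.0401) and with the unequal-variance test (0.0428).

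CESA1 (AT4G32410_at), CESA3 (AT5G05170_at) and CESA6 (AT5G64740_at) are the isoforms of the cellulose synthase complex of primary walls, and pollen that lacks CESA1 or CESA3 is malformed. CESA3 had 14.1, 11.9 and 13.5 in wild type and 34.0, 37.4 and 28.3 in NOT1+/-. The genotypes of CESA3 were far apart relative to the replicates, and its log2 fold change was 1.33 (SE 0.17, 95% interval 0.92 to 1.73, adjusted p = 0.00174). CESA3 was called higher under all 15 alternatives, with log2 fold changes from 0.75 (16 intensity units added before log2) to 1.44 and adjusted p from 2.71e-04 to 0.0385. Because CESA3 was nearly as dim in wild type as the median feature, its direction is firmer than its fold change.

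CESA1 had 20.1, 18.2 and 15.8 in wild type and 22.9, 29.8 and 24.8 in NOT1+/-. All NOT1+/- values of CESA1 were above all wild-type values; its log2 fold change of 0.52 (SE 0.18, 95% interval 0.10 to 0.93) did not pass after adjustment (adjusted p = 0.114). Among features above the median level alone CESA1 was called higher (adjusted p = 0.0426), within a range from 0.0426 to 0.286 over its 15 alternatives. CESA6 had 16.2, 18.0 and 14.9 in wild type and 16.0, 18.3 and 13.1 in NOT1+/-, with overlapping genotypes. Its log2 fold change was -0.06 (SE 0.18, 95% interval -0.48 to 0.36, adjusted p = 0.874).

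A ratio of 2 genes on the same array does not move with a linear rescaling of that array, so all 45 pairs of the 10 genes were compared in this way. The ratio of CALS5 to CALS9 was 2.32 ± 0.0953 on the log2 scale in wild type and 3.56 ± 0.0836 in NOT1+/- (mean ± SD, n = 3 arrays each). CALS5 thus gained 2.36-fold over CALS9, and 2.56-fold over CALS12. CALS5 also gained 1.80-fold over CSLD1 and 2.04-fold over CSLD4, but lost ground to CESA3, to which its ratio changed by -0.53 on the log2 scale. In 8 of the 9 ratios of CALS5 to another member the NOT1+/- values all lay higher, and 73.7% of all features were likewise outpaced by CALS5.

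CESA3 gained over each of the other 9 members with no overlap between genotypes, against 88.6% of all features. The ratio of CESA3 to CESA6 was -0.31 ± 0.24 in wild type and 1.08 ± 0.0389 in NOT1+/-, a 2.62-fold gain within the group of primary wall isoforms. The ratio of CESA1 to CESA6 changed by 1.49-fold, from 0.14 ± 0.15 to 0.72 ± 0.20. CESA1 thus stood between its partners: it gained over 7 members and lost to CALS5 and CESA3. The share of all features that CESA1 outpaced in this way was not computed. The 3 CESA genes were dim in wild type, so the size of these ratio changes is uncertain. With 16 units added to every intensity, the log2 change of CESA3 to CESA6 fell from 1.39 to 0.78. That of CESA1 to CESA6 fell from 0.58 to 0.33, and both stayed without overlap. Quantile normalization, which is not a linear rescaling, reversed the order of CALS5 and CESA1, with log2 fold changes of 0.16 and 0.45. The ratio of CSLD1 to CSLD4 changed little, from 1.08 ± 0.10 to 1.26 ± 0.0514, without overlap.

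Of the 45 pairs 31, or 68.9%, had ratios that did not overlap between genotypes, against 31.9% of all pairs of features in the table. Most involved CALS5 or CESA3; of the 28 pairs without either gene 14 did not overlap. The pairs share genes and are not independent. The share over all pairs covers features of every level, while 8 of the 10 genes lay above the array median on all arrays. No share matched on level was computed, so the 2 percentages are not of like sets. The exact two-sided permutation test cannot go below 0.1 for any pair, and the smallest adjusted p over the 45 pairs was 0.145, so no single ratio passed. When 16 units were added to every intensity, which damps dim values, CALS5 and CESA3 changed by nearly the same amount and their ratio overlapped between genotypes (a change of -0.0032).

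**Figure D2:**
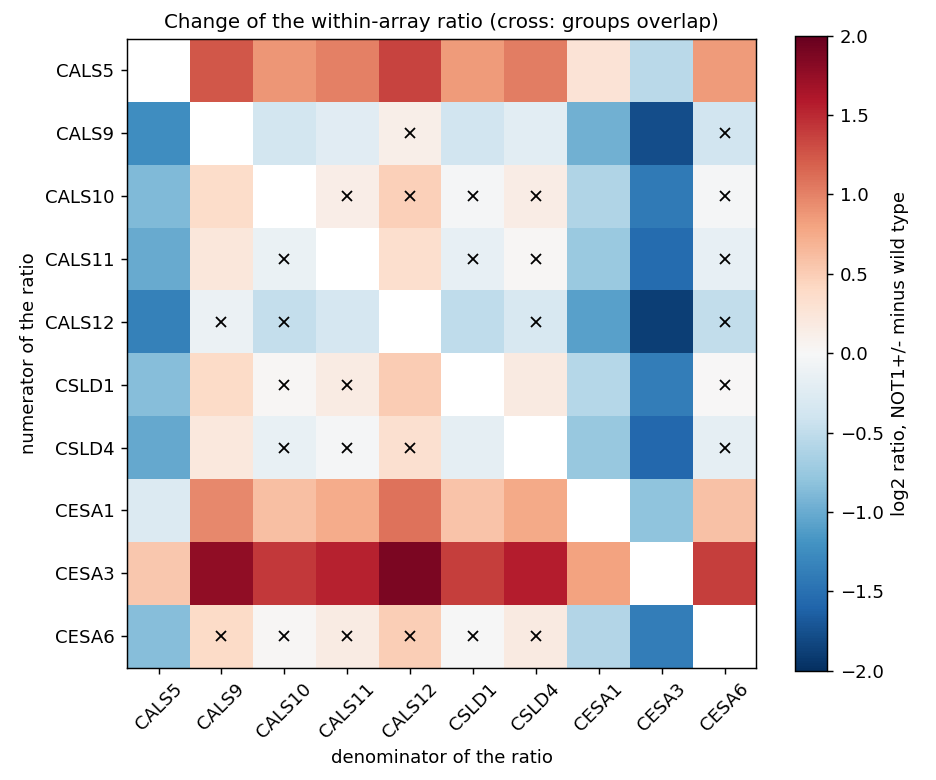
Change of the within-array log2 ratio of the gene in the row to the gene in the column, NOT1+/- minus wild type, with a cross where the 3 values of one genotype overlap those of the other. The rows of CESA3 and CALS5 are red against almost all columns, and 31 of the 45 pairs carry no cross.

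The pathway lists place these genes among their relatives. In the whole callose synthase family, CALS5 was the 1 gene of 12 called higher (8.84% of all features). CALS2, a close relative of CALS1, was the 1 called lower (3.22%), and 10 did not pass. At an unadjusted p under 0.05, 1 was higher and 4 lower, against 13.2% and 12.5% of all features. The unequal-variance test called 1 higher and 0 lower, against 4.42% and 0.83%. In 4 of the 12 every NOT1+/- value lay below every wild-type value, and in 1 above, against 16.9% and 14.9%. CALS2 (AT2G31960) had 24.9, 21.1 and 23.3 in wild type and 13.5, 13.5 and 13.4 in NOT1+/-, the latter near the array medians. Its log2 fold change was -0.77 (SE 0.15, adjusted p = 0.0134), a call that was lost without wild-type replicate 1 (adjusted p = 0.0515), NOT1+/- replicate 1 (0.0565) or NOT1+/- replicate 2 (0.0551) and with the unequal-variance test (0.0882). The genotypes of CALS8 did not overlap (log2 fold change -0.51, adjusted p = 0.089). CALS1, CALS3 (a plasmodesmal callose synthase), CALS4, CALS6 and CALS7 (of phloem sieve plates) lay between -0.45 and 0.12, with adjusted p of 0.315 or more. The median of the family was -0.22.

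In the cellulose synthase family 2 of 10 were called higher (8.84% of all features), CESA3 and CESA2, 0 were lower (3.22%), and 8 did not pass. At an unadjusted p under 0.05, 4 were higher and 0 lower, against 13.2% and 12.5% of all features. The unequal-variance test called 1 higher and 0 lower, against 4.42% and 0.83%. CESA2 (AT4G39350), a relative of CESA6 that can stand in for it in the complex, had 32.4, 24.9 and 33.1 in wild type and 57.4, 65.3 and 57.8 in NOT1+/-. Its log2 fold change was 1.01 (SE 0.18, adjusted p = 0.00808). CESA9, another relative of CESA6, had values without overlap, from 12.0 ± 4.33 to 24.7 ± 5.78, but a wide spread (log2 fold change 1.09, SE 0.33, adjusted p = 0.0758). CESA9 was called higher under 5 of 15 alternatives, namely the replicate block (adjusted p = 0.0183), 16 units added (0.0261), the trended robust fit (0.0306), the filter on level (0.0353) and median centring (0.0471), and its adjusted p reached 0.288 with the unequal-variance test. CESA5, of the same CESA6-like group, had 0.32 (adjusted p = 0.59) and CESA10, which resembles CESA1, 0.13 (0.752). CESA4, CESA7 and CESA8, the isoforms of secondary walls, had -0.02, -0.48 and 0.21 (adjusted p 0.342 to 0.956). The median of the family was 0.26.

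In the CSLD family limma called 0 of 6, with 0 at an unadjusted p under 0.05 in either direction, while the unequal-variance test called CSLD4 lower (adjusted p = 0.0428). CSLD2 and CSLD3, which act in root hairs, had log2 fold changes of -0.69 and -0.40, CSLD5, which acts at the cell plate, -0.05, and CSLD6 0.36. Their adjusted p lay between 0.233 and 0.939, and their values, between 4.72 and 21.3, were near or below the array medians.

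**Figure D3:**
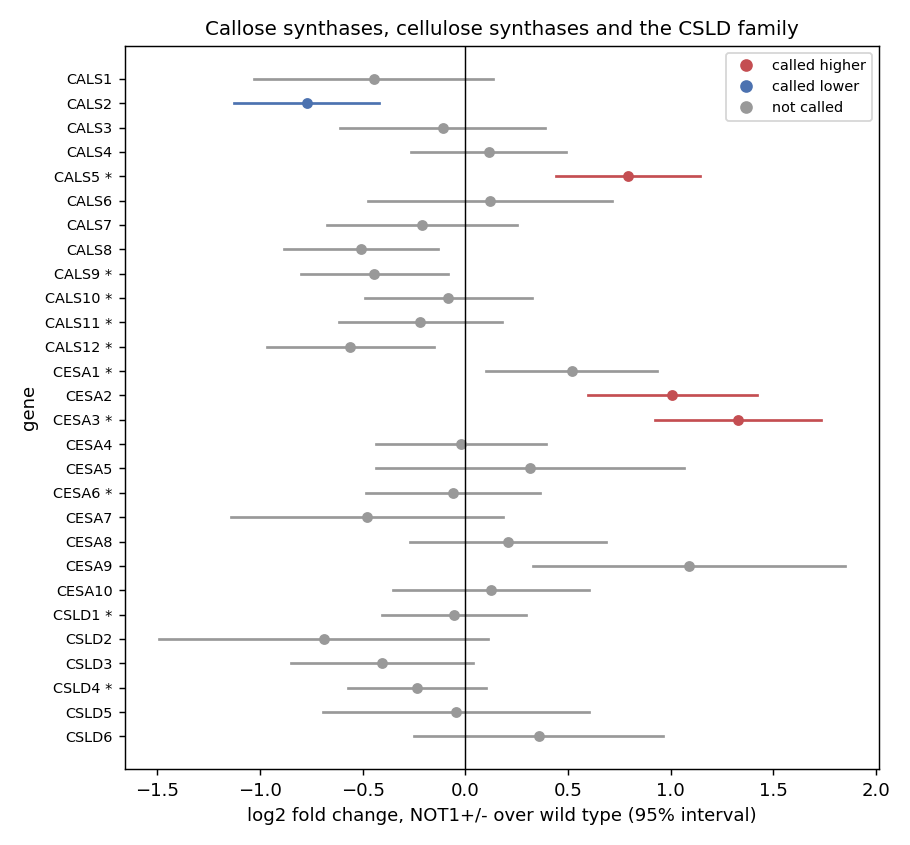
Log2 fold change of NOT1+/- over wild type with its 95% interval for the 12 callose synthases, 10 cellulose synthases and 6 CSLD genes; asterisks mark the 10 pollen wall genes, red and blue the called genes. CALS5, CESA2 and CESA3 are called higher, CALS2 is called lower and the other genes are grey.

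Among proteins that work with cellulose synthases, 5 of 18 were called higher and 0 lower, against 8.84% and 3.22% of all features. The other 13 were not called, and the median log2 fold change was 0.03. At an unadjusted p under 0.05, 5 were higher and 0 lower, against 13.2% and 12.5% of all features. The unequal-variance test called 4 higher and 0 lower, against 4.42% and 0.83%. CTL1 (AT1G05850, POM1 in the reference table), a chitinase-like protein of cellulose assembly, went from 18.3 ± 4.82 to 183 ± 26.3 (log2 fold change 3.35, SE 0.23, adjusted p = 6.3e-05). KOR3 and KOR1, membrane-anchored endoglucanases, had 2.58 (SE 0.23) and 1.34 (SE 0.16), and KOB1, a membrane protein required for cellulose deposition, 1.45 (SE 0.16). Wild-type values of CTL1, KOR3, KOR1 and KOB1 were dim, between 8.86 and 23.3, so their fold changes are uncertain in size. CSI2, of the family that ties synthase complexes to microtubules, went from 305 ± 8.13 to 607 ± 68.3 (0.99, SE 0.16). CSI2 lost its call after quantile normalization (0.35, adjusted p = 0.206) and with the unequal-variance test (0.0827), while CTL1, KOR3, KOR1 and KOB1 kept theirs under all 15 alternatives. COBL10, a GPI-anchored protein of pollen tube guidance, and COBL11, its close relative, had -0.02 and 0.02, with intensities of 1536 ± 39.8 and 302 ± 19.4 in wild type.

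In the supply of UDP-glucose, 3 of 11 genes were called higher and 1 lower, against 8.84% and 3.22% of all features, with a median of -0.10. The 2 UDP-glucose pyrophosphorylases, which make the sugar donor from glucose phosphate, both rose: UGP2 from 54.7, 46.8 and 45.3 to 246, 239 and 178 (log2 fold change 2.16, SE 0.19, adjusted p = 2.08e-04) and UGP1 from 122, 119 and 122 to 265, 289 and 200 (1.04, SE 0.18, adjusted p = 0.00805). USP, a UDP-sugar pyrophosphorylase that pollen development requires, had 0.57 (SE 0.15, adjusted p = 0.047), and SUS4, a sucrose synthase, -1.25 (SE 0.32, adjusted p = 0.0438). USP lost its call under 10 of 15 alternatives. Among them were the omission of any 1 array (adjusted p 0.0634 to 0.153) and the replicate block (0.0983). Over the 15 alternatives its log2 fold change ranged from 0.12 to 0.65 and its adjusted p reached 0.678. SUS4, with 13.3 ± 5.89 in wild type and 5.35 ± 1.16 in NOT1+/-, lost its call without any 1 array other than wild-type replicate 2 (adjusted p 0.0621 to 0.146). UGP1 did not pass after quantile normalization (0.50, adjusted p = 0.0977) or with the unequal-variance test (0.156).

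Synthases of other wall polysaccharides were also listed. Of 14 CSLA and CSLC genes, which make the backbones of glucomannan and xyloglucan, 2 were called lower and 0 higher. Over all features the shares were 3.22% and 8.84%, and the median of the list was -0.39. At an unadjusted p under 0.05, 5 were lower and 0 higher, against 12.5% and 13.2% of all features. The unequal-variance test called 0 in either direction. CSLA7, which pollen tube growth and the embryo need, had 30.3, 32.2 and 31.7 in wild type and 12.0, 13.8 and 15.1 in NOT1+/- (log2 fold change -1.21, SE 0.16, adjusted p = 0.00179). The NOT1+/- values of CSLA7 lay near the array medians, so its fold change is uncertain in size. CSLA2 went from 161 ± 7.24 to 88.5 ± 12.6 (-0.87, SE 0.17, adjusted p = 0.0133), and its call was lost without NOT1+/- replicate 1 (adjusted p = 0.0546). With the unequal-variance test neither was called (0.0609 and 0.119). Among 8 glucanase genes that can degrade callose limma called 0, with 0 in either direction at an unadjusted p under 0.05 or by the unequal-variance test, and among 4 regulators of CALS5 0, with 1 lower at an unadjusted p under 0.05 and 0 by the unequal-variance test.

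**Figure D4:**
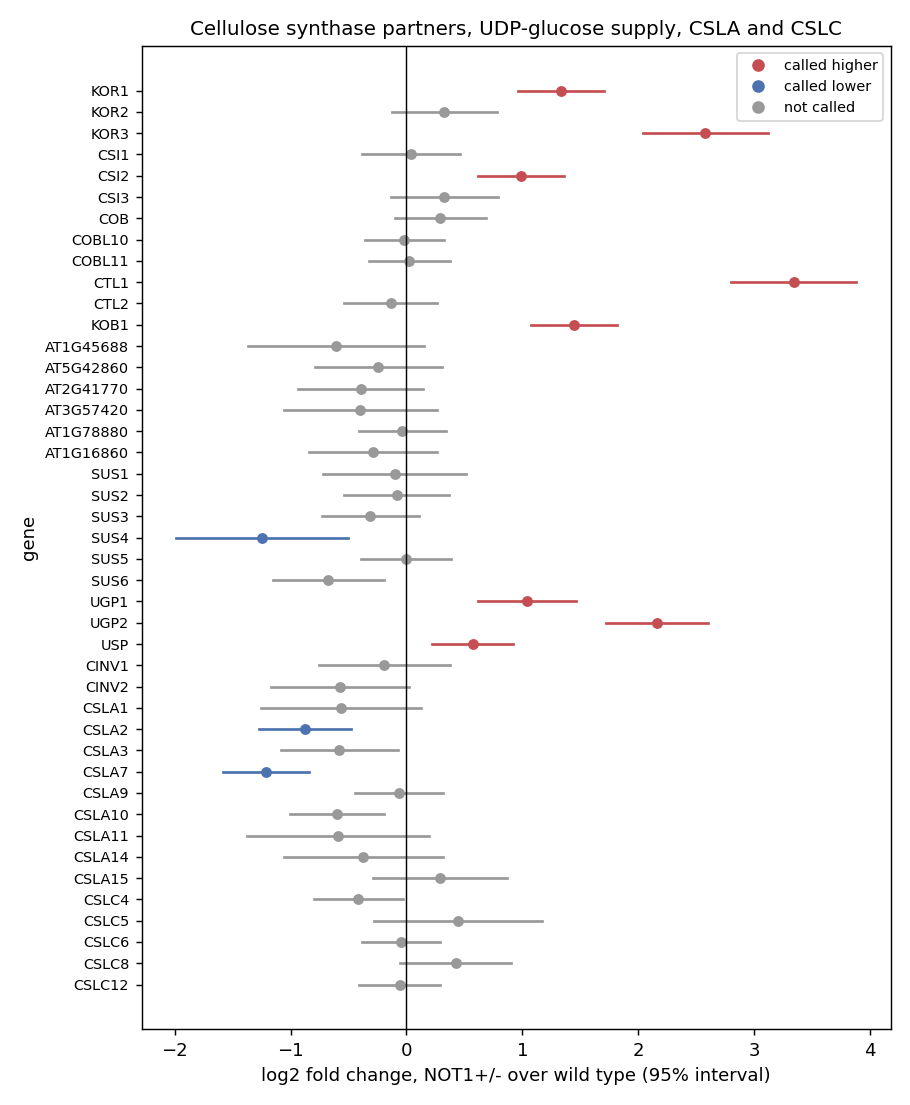
Log2 fold change of NOT1+/- over wild type with its 95% interval for 18 partners of cellulose synthase, 11 genes of UDP-glucose supply and 14 CSLA and CSLC genes, with called genes in red (higher) or blue (lower). CTL1 at 3.35, KOR3 at 2.58 and UGP2 at 2.16 lie farthest to the right and CSLA7 and SUS4 farthest to the left.

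Several calls among the 10 genes depended on the scaling between arrays. Quantile normalization left 1 of 10 called higher, CESA3, against 7.91% of all features, and called 3 of 10 lower, CALS9 (-0.67, adjusted p = 0.0248), CALS12 (-0.88, 0.0133) and CSLD4, against 7.15%. By construction it lowers bright features in NOT1+/- arrays, where upper percentiles were higher. CALS9 and CALS12 were also called lower with 16 units added (adjusted p 0.036 and 0.0168) and among features above the median level (0.0362 and 0.0286), and CALS12 and CSLD4 with a mean-variance trend and robust fit (0.0229 and 0.0401). These settings called 5.35%, 10.9% and 5.24% of the features they tested lower, and the filter on level called 19.6% higher. Over all 15 alternatives the adjusted p of CALS9 ranged from 0.0248 to 0.274 and that of CALS12 from 0.0133 to 0.253, always with a log2 fold change below 0.

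**Figure D5:**
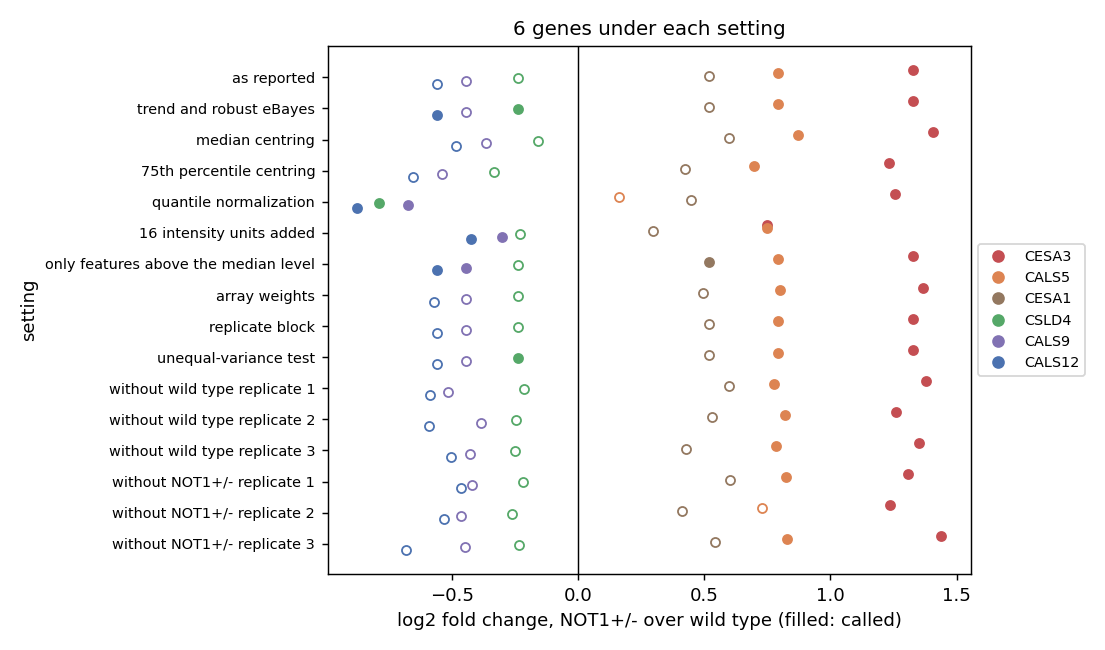
Log2 fold change of 6 of the genes (x axis) as reported and under each of 15 alternatives (y axis), filled where called at an adjusted p under 0.05. CESA3 is filled in every row, CALS5 is open after quantile normalization and without NOT1+/- replicate 2, and CALS9, CALS12 and CSLD4 stay below 0 throughout.

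Over the 6 arrays, the features whose log2 values followed those of CALS5 most closely were AT3G04930, AT1G18900 and D2HGDH (Pearson r = 0.999, 0.998 and 0.998). For CESA1 they were AL7, AT3G15690 and AT5G52840 (0.997, 0.992 and 0.99), and for CSLD1 AT5G58450, AT1G28100 and AT3G04660 (0.995, 0.995 and 0.991). With 6 points that share the genotype split, such values were common: 2695 features correlated with CALS5 above 0.9, 529 with CESA1 and 233 with CSLD1.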

How the data were processed

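Per the labels' protocols, about 100 ng of total RNA per sample was amplified, labelled and hybridised to 1-colour arrays. In the deposited table each locus has 1 linear intensity per array; the submitters' processing notes name Affymetrix Expression Console, while for its version, background correction, summarisation and scaling nothing is stated in those sources. Without detection calls or scan dates no gene could be called absent and no batch tested; precision is limited by there being 3 arrays a genotype. The log2 of the deposited intensities was taken with no offset or filter. A model per feature was fitted by limma 3.58.1 (lmFit, eBayes; R 4.3.3) as NOT1+/- minus wild type, with adjustment over all features. Fold changes are ratios of geometric means. Ratios and exact tests used scipy 1.17.1. The code was tested on simulated data. Gene names come from a RefSeq table (assembly TAIR10.1) that matched all 10 genes; where its symbol differs, the customary CALS, KOR, CTL or CSI name is used. The genes and the lists were chosen with earlier results of these data known. Genes were named by rule: the 10 genes, all members of the 3 synthase families, up to 6 called genes per pathway list, NOT1 and the 3 features most like each of CALS5, CSLD1 and CESA1; COBL10 and COBL11 were added after their values were seen. The marker lists are summarised by counts.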

Additional observations from a re-analysis of the deposited data

How the results depend on the processing

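Calls over all features, among the 10 genes and in 3 pathway lists were recomputed under 15 other settings, as were the 40 named genes. The 3 lists were cellulose synthase partners, UDP-glucose supply, and CSLA and CSLC genes. Counts for the other lists were recomputed only with the unequal-variance test. Ratios between the 10 genes are given only for the deposited values and with 16 units added. The correlations between features were not recomputed. Genes below the median level, CALS11 among them, have no value under the filter on level. Of 591 comparisons of 40 named genes with an alternative, 513 kept direction and side of the threshold, 41 lost a call, 19 gained one and 18 changed sign, all 18 in genes not called. Of the 10 pollen wall genes, the count called higher was 1 after quantile normalization and 1 to 2 when 1 array was left out, the 1 being without NOT1+/- replicate 2, and 3 above the median level, where CESA1 was added. The count called lower was 2 with a trended robust fit, with 16 units added and above the median level, 3 after quantile normalization and 1 with the unequal-variance test. Over all features, calls of higher numbered 1229 with the unequal-variance test. Calls of lower numbered 1458 (trended robust fit), 571 (median centring), 1460 (75th percentile), 1991 (quantile), 1490 (16 units added), 1515 (above the median level), 555 (replicate block) and 231 (unequal variance), and 258 to 711 without 1 array: 586, 410 and 596 without wild-type replicates 1, 2 and 3, 258 and 315 without NOT1+/- replicates 1 and 2; fewer arrays also lower the power. Among cellulose synthase partners 1, COBL11, was lower after quantile normalization. In UDP-glucose supply 1 was higher after quantile normalization and with unequal variance; 0 were lower after median centring, quantile normalization, 16 units added and unequal variance, and 0 to 1 without 1 array. Of the CSLA and CSLC genes 0 were lower with unequal variance and 1 to 2 without 1 array.

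Sign changes of single genes were small. Under median centring CSLD1 had 0.024, CESA6 0.018, CESA4 0.056 and CSLD5 0.032. Under quantile normalization CESA4 had 0.0014 and CESA10 -0.0043. The ratio of CSLD1 to CESA6 had -0.026 with 16 units added. CALS5 and CESA1 also changed order after quantile normalization, with log2 fold changes of 0.16 and 0.45. Without 1 array CESA6 ranged from -0.17 to 0.066, CALS3 from -0.24 to 0.054, CALS6 from -0.16 to 0.30, CESA4 from -0.12 to 0.12, CESA5 from -0.045 to 0.53, CESA10 from -0.056 to 0.27 and CSLD5 from -0.31 to 0.17. The cause of these changes was not tested.

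Whether replicate numbers pair the samples could not be settled. Deviations from the group means correlated at 0.114, 0.133 and -0.013 for same-numbered arrays. Wild-type replicates 1 and 2 correlated best with their own number and wild-type replicate 3 did not. With 3 arrays a genotype, deviations from a mean constrain each other, so such correlations cannot exclude pairing. With the replicate block 2163 features were called higher and 555 lower, and the 2 calls among the 10 genes, CALS5 and CESA3, held (adjusted p = 0.0363 and 0.0105).

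Dim signal limits CALS11, CESA6, CSLD2, CSLD3, CSLD5 and CSLD6, whose values lie near or below the array medians. It also limits CESA1 and CESA3 in wild type, CALS2 and CSLA7 in NOT1+/-, and SUS4, which lay below the array median on 5 arrays. With 16 units added the log2 fold change of CESA1 was 0.30, beside 0.52 as reported. With 3 arrays a group, a missed call does not show that a gene was unaffected.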
